A study of Mus musculus with 16 samples.

Results

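The nuclear genes of oxidative phosphorylation were examined in regenerating mouse liver with and without Arid1a, which encodes an ARID domain subunit of BAF-type SWI/SNF remodellers. They were taken by symbol from the protein-coding genes of RefSeq assembly GRCm38.p6, as every nuclear gene whose symbol begins with Nduf, Uqcr, Cox plus a digit or Atp5, or is Sdha, Sdhb, Sdhc or Sdhd. This gave 105 of 21887 protein-coding genes, with 47 in complex I, 4 in complex II, 8 in complex III, 29 in complex IV and 17 in complex V. No measured value entered the choice.

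Oxidative phosphorylation passes electrons from NADH and succinate along complexes I to IV of the inner mitochondrial membrane to oxygen. The protons pumped on the way drive ATP synthase, which is complex V. Hepatocytes are rich in mitochondria and use this ATP for glucose and urea synthesis, and the complexes are built from nuclear genes together with a few genes of mitochondrial DNA. E2f4 is an E2F family factor known for binding cell cycle promoters, mostly with pocket proteins, while H3K4me2 is found at promoters and enhancers, and H3K27ac at those in use.

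The KO livers carried Arid1a Fl/Fl with Alb-cre, and the WT livers carried Arid1a Fl/Fl without Cre, so the floxed alleles were shared. All came from mice of a mixed C57/B6 and 129 background at postnatal day 90, taken 40 h after partial hepatectomy. The albumin promoter drives Cre in hepatocytes, so liver cells in which it was never active keep Arid1a. The peak lists hold no measure of Arid1a itself. ChIP-seq of hepatocytes isolated from frozen, formaldehyde-fixed liver gave 2 E2f4 libraries per genotype and 1 library per genotype for each histone mark, and 8 inputs were not used here. Whether the E2f4 replicates came from separate animals is not in the labels, so p-values measure the spread between these libraries, possibly only a technical one. Each library has its own list of called peaks with no read counts, so depth is unknown and a peak missing from a list is only a peak not called. In tissue, a mark present in fewer cells and a mark that is weaker in every cell cannot be told apart.

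The E2f4 lists differed in length before any gene was considered. KO replicate 1 had 287 peaks and KO replicate 2 had 683, against 1791 and 1058 in WT replicates 1 and 2. The H3K4me2 lists covered 112 Mb in KO and 104 Mb in WT, and the H3K27ac lists covered 104 Mb in KO and 113 Mb in WT. The hepatocyte markers Alb, Apoa1, Ttr, Cps1, Cyp2e1, Serpina1a and Hnf4a carried both marks within 5000 bp of the gene end, 7 of 7 in each of the 4 histone lists. Their H3K4me2 summed to 47276 bp in KO and 54483 bp in WT, with less in KO at 4 of 7, and their H3K27ac to 55872 bp in KO and 54716 bp in WT. Over the same windows, H3K4me2 at 7 lymphocyte markers summed to 5910 bp in KO, where 5 of them were at 0, and to 24749 bp in WT, where 1 was, while their H3K27ac summed to 7398 bp in KO and 7104 bp in WT. At 6 endothelial markers it summed to 28491 bp in KO and 17770 bp in WT, with more in KO at all 6. Endothelial H3K27ac went the other way, 25515 bp in KO and 31592 bp in WT, with less in KO at 4 of 6. H3K27ac at 5 stellate cell and fibroblast markers summed to 4468 bp in KO, with 2 at 0, and 12961 bp in WT, with 0 at 0, while their H3K4me2 summed to 15885 bp in KO and 8588 bp in WT. At 5 macrophage markers H3K4me2 summed to 14048 bp in KO and 13154 bp in WT and H3K27ac to 17301 bp in KO and 18967 bp in WT. At 5 cholangiocyte markers, 2 of them at 0 in both genotypes, H3K4me2 summed to 5056 bp in KO and 6007 bp in WT, and H3K27ac to 0 bp in KO and 1864 bp in WT.

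E2f4 was found at few oxidative phosphorylation genes. A gene was counted when the summit of an E2f4 peak, its highest point, lay within 1000 bp of the gene end with more H3K4me2, called the marked end here. The genes with such a summit in more than 1 library were Cox8a, Ndufb8 and Ndufs8, each in KO replicate 2, WT replicate 1 and WT replicate 2. Cox8a, at chr19:7215158-7217616, encodes a small structural subunit of cytochrome c oxidase in its ubiquitous form. Ndufb8, at chr19:44548571-44555442, encodes an accessory subunit of the complex I membrane arm. Ndufs8, at chr19:3908863-3912774, encodes an iron-sulphur core subunit of complex I.

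The annotated promoters of these genes are shown because they hold the only E2f4 summits shared between libraries among the 105 genes. Each window of RefSeq GRCm38.p6 runs from 250 bases before to 50 bases after the start on the minus strand, written 5′ to 3′, at chr19:7217567-7217866, chr19:44555393-44555692 and chr19:3912725-3913024. Capitals mark the span between the outermost of the 3 summits.

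Cox8a: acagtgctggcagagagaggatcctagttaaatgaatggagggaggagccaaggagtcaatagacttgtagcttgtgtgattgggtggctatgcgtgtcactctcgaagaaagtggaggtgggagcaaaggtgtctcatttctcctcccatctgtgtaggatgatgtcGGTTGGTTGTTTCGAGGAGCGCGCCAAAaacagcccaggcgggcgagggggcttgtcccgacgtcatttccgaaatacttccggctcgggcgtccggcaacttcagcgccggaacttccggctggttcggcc
Ndufb8: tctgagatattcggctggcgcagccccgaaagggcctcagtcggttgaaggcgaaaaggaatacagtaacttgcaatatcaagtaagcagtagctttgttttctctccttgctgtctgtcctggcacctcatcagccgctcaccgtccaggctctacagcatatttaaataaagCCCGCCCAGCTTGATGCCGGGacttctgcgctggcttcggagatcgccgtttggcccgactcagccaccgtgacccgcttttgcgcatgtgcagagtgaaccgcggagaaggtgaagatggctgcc
Ndufs8: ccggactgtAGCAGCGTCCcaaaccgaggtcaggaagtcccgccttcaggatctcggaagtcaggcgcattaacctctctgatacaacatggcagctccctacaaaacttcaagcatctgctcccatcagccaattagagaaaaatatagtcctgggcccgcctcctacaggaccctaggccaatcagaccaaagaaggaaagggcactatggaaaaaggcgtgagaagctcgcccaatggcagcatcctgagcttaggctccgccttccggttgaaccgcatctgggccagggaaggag

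The Cox8a summits span 28 bases, from -82 to -55 relative to the start, and the Ndufb8 summits span 21 bases, from -76 to -56. At Ndufs8 they span 10 bases, from -241 to -232, farther from the gene, and the end of Aldh3b1 lies 717 bp from that of Ndufs8, so either gene could be counted. The capitals of Cox8a end in gcgccaaa, which is TTTGGCGC on the other strand and starts at -62. TTTGGCGC is one of 4 spellings of the E2F consensus that were searched on both strands, with TTTCCCGC, TTTCGCGC and TTTGCCGC. None of these letters, nor the same spellings without the first T, occurs in the Ndufb8 or Ndufs8 window. That says only that these letters are not in those 300 bases.

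At Cox8a the peak ran from 7217568 to 7217798 in KO replicate 2, from 7217556 to 7217791 in WT replicate 1 and from 7217553 to 7217767 in WT replicate 2. The authors' fold enrichment over background, which belongs to a peak and ranks peaks only within its own list, was 9.21 in KO replicate 2, 20.8 in WT replicate 1 and 14.5 in WT replicate 2. By −log10 q-value the peak ranked 267 of 683 in KO replicate 2, 197 of 1791 in WT replicate 1 and 328 of 1058 in WT replicate 2. Cox8a thus stood in the stronger part of each list that called it.

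At Ndufb8 the fold was 9.07 in KO replicate 2, 21.8 in WT replicate 1 and 18.3 in WT replicate 2, and the ranks in the same libraries were 349, 170 and 242. At Ndufs8 it was 11.0 in KO replicate 2, 15.7 in WT replicate 1 and 17.0 in WT replicate 2, with ranks 279, 282 and 280. Peaks of the same gene overlapped by 185 to 234 bp between libraries, and their summits lay 1 to 27 bp apart. The 3 genes therefore carried one E2f4 position each, called in both WT libraries and in 1 of 2 KO libraries.

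**Figure D1:**
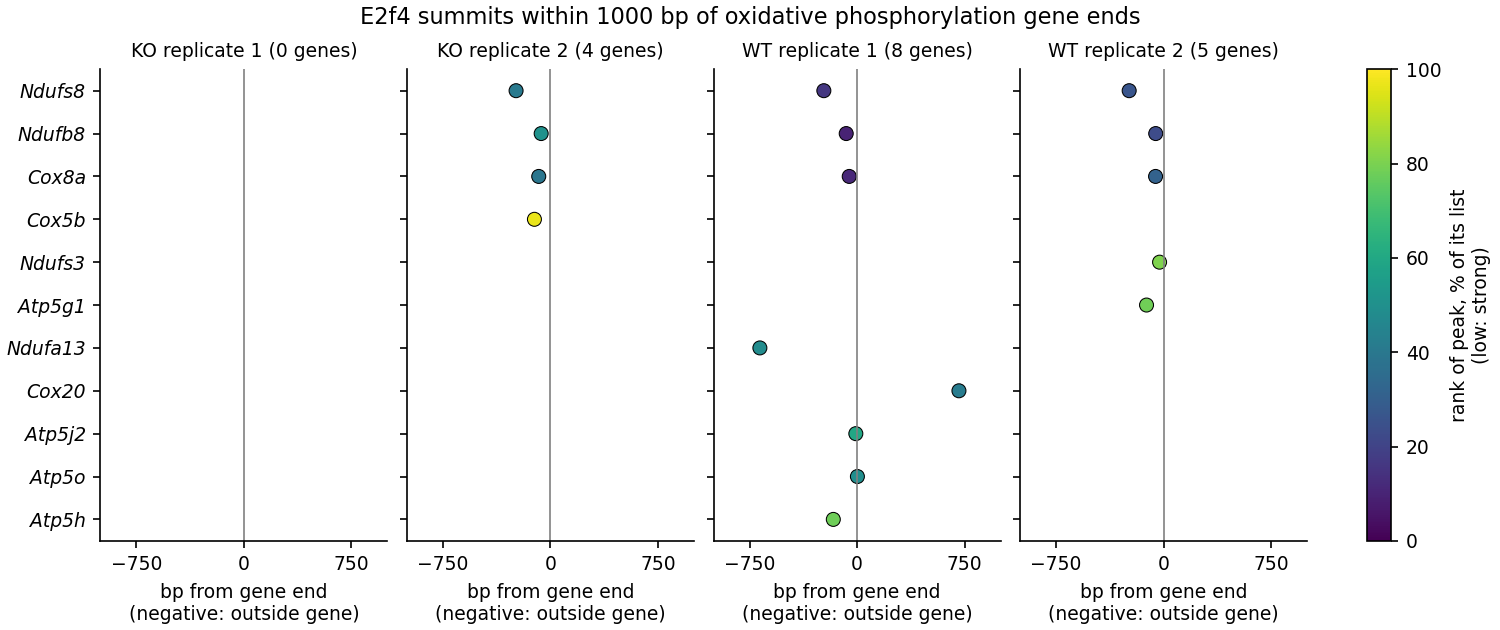
E2f4 summits within 1000 bp of the marked ends of oxidative phosphorylation genes, 1 panel per library, with distance from the gene end in bp on the x axis (negative outside the gene) and color giving the rank of the peak as a percentage of its list. KO replicate 1 has 0 genes, KO replicate 2 has 4, WT replicate 1 has 8 and WT replicate 2 has 5, and Ndufs8, Ndufb8 and Cox8a sit at nearly the same place in each of the 3 libraries that hold them.

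The other genes with a summit had it in 1 library each. Cox5b, a zinc-binding subunit of cytochrome c oxidase, had it in KO replicate 2, 112 bp outside the gene, where the peak ranked 660 of 683. In WT replicate 1 they were Cox20, a chaperone for the Cox2 subunit, at rank 745 of 1791, Ndufa13, an accessory subunit of complex I also known as GRIM-19, at rank 864, and Atp5o, the stalk subunit OSCP, at rank 878. Atp5j2, subunit f of the membrane part of ATP synthase, followed at rank 1066, and Atp5h, subunit d of its stalk, at rank 1398. In WT replicate 2 they were Atp5g1, which encodes the subunit of the c ring, at rank 831 of 1058, and Ndufs3, a core subunit of complex I, at rank 854. Most of these summits lay within 166 bp of the marked end, with Ndufa13 at 678 bp outside the gene record and Cox20 at 710 bp inside it as exceptions. Relative to the start used for the promoter windows, the Cox20 summit lay at -348 and the Ndufa13 summit at -1216, both upstream. Ndufa13 shares its end with Tssk6, Ndufs3 with Kbtbd4 and Atp5h with Kctd2, so the summit may be counted for either gene of each pair.

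By complex, the 11 genes were 4 of complex I, 3 of complex IV and 4 of complex V. All 4 genes of complex II and all 8 of complex III lacked a summit in every library. The 4 of complex V were seen in 1 WT library each and in no KO library. Over all protein-coding genes, 1559 of 21887 (7.12%) had a summit in at least 1 WT library, and 655 of those also had one in a KO library. A summit in WT lists only was thus common among all genes, and the small counts by complex were not tested.

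In all, both WT libraries held a summit at 3 of 105 genes (2.86%), beside 3.67% of all protein-coding genes. At least 1 KO library held a summit at 4 of them (3.81%), beside 3.13% of all genes, and at least 1 WT library held one at 10 (9.52%), beside 7.12%. Among the 15060 genes of the genome with H3K4me2 at the marked end, the shares were 4.56% for at least 1 KO library, 10.3% for at least 1 WT library and 5.33% for both WT libraries. Oxidative phosphorylation genes therefore carried E2f4 about as often as genes in general, and the counts are no result about the pathway. Of the 78 mitochondrial ribosomal protein genes, 5 (6.41%) carried one in a KO library and 6 (7.69%) in both WT libraries.

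Per library, 0 and 4 oxidative phosphorylation genes had a summit in KO and 8 and 5 in WT. The KO mean was 2 ± 2.83 genes and the WT mean 6.5 ± 2.12 genes (SD, n = 2 each), a difference of -4.5 genes. The exact two-sided permutation test gave p = 0.333, the smallest value that the 6 assignments of 4 libraries allow, so this design cannot reach 0.05. Over all protein-coding genes the counts moved the same way, 459 ± 313 in KO and 1181 ± 276 in WT (SD, n = 2 each), with the same exact permutation p of 0.333. The lower counts at oxidative phosphorylation genes thus came with shorter KO lists as a whole. With each list held to its 287 strongest peaks, the counts were 0 and 2 genes in KO and 3 and 2 in WT. The difference was then -1.5 genes (exact permutation p = 0.667, n = 2 each). Cut lists hold fewer summits in both genotypes, so a smaller difference follows in part from the cut. The part of list length in the difference was not tested. With peaks limited to a −log10 q-value of 10 or more, Cox8a, Ndufb8 and Ndufs8 were the genes left in KO replicate 2, in WT replicate 1 and in WT replicate 2 alike, and KO replicate 1 again had 0.

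Both histone marks were present at nearly every oxidative phosphorylation gene, in KO as in WT. H3K4me2 lay within 1000 bp of the marked end at 98 of 105 genes (93.3%) in KO and at 98 in WT, beside 67.4% of all genes in KO and 66.3% in WT. H3K27ac did so at 98 genes in KO and 98 in WT, beside 56.5% of all genes in KO and 56.6% in WT. The same 98 genes had both marks in both genotypes, and the remaining 7 had neither mark there in any of the 4 lists. Over all protein-coding genes, 53.3% had both marks in both genotypes and 30.1% had none. Of the 40 proteasome subunit genes, 38 had H3K4me2 there in KO and 38 in WT.

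The 7 genes without a mark at the end were Cox4i2, Cox6a2, Cox7b2, Cox8b and Cox8c of complex IV and Ndufb4b and Ndufb4c, paralogs of the complex I subunit gene Ndufb4. Ndufb4b had 1562 bp of H3K27ac within 5000 bp in KO and 2612 bp in WT, and Ndufb4c had 0 bp in both. Peaks at near-identical copies such as these are uncertain where a read fits more than 1 place. The complex IV genes encode isoforms known from other tissues or states. Cox6a2 and Cox8b are the forms of heart and skeletal muscle, Cox7b2 and Cox8c are known from testis, and Cox4i2 is the form of lung and of low oxygen. Cox6a2, Cox7b2 and Cox8c had 0 bp of either mark within 5000 bp in all 4 lists. Cox4i2 had 1547 bp of H3K4me2 in KO and 1386 bp in WT, and 259 bp of H3K27ac in KO and 234 bp in WT, the shortest H3K27ac among the genes that had any. At Cox8b the covered length lay more than 1000 bp from the marked end, 2704 bp of H3K4me2 in KO and 2168 bp in WT. Its H3K27ac was 3182 bp in KO and 3173 bp in WT, longer than the 2810 bp in KO and 2189 bp in WT of Cox8a. The end of Psmd13 is 1804 bp from that of Cox8b.

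The ubiquitous partners of these isoforms were marked throughout. All 7 ubiquitous genes (Cox4i1, Cox6a1, Cox6b1, Cox7a2, Cox7b, Cox8a and Ndufa4) had both marks at the end in both genotypes, against 3 of 8 restricted or inducible forms (Cox6b2, Cox7a1 and Ndufa4l2). Cox7a1, the muscle form of Cox7a2, had 1290 bp of H3K4me2 in KO and 829 bp in WT, and 1239 bp of H3K27ac in KO and 665 bp in WT. Cox7a2 had 4001 bp of H3K4me2 in KO and 3762 bp in WT, and 5204 bp of H3K27ac in KO and 7082 bp in WT. Cox6b2, the testis form of Cox6b1, had 1179 bp of H3K27ac in KO and 1794 bp in WT, and Cox6b1 had 3007 bp in KO and 1528 bp in WT. For H3K4me2, Cox6b2 had 2609 bp in KO and 1529 bp in WT, and Cox6b1 had 2495 bp in KO and 2117 bp in WT. The restricted form was therefore not the shorter one throughout. Ndufa4l2, a form induced by low oxygen, had 3648 bp of H3K27ac in KO and 3479 bp in WT, and its end is 31 bp from that of Shmt2, so the marks of the pair cannot be separated. The isoforms were paired from textbook knowledge.

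**Figure D2:**
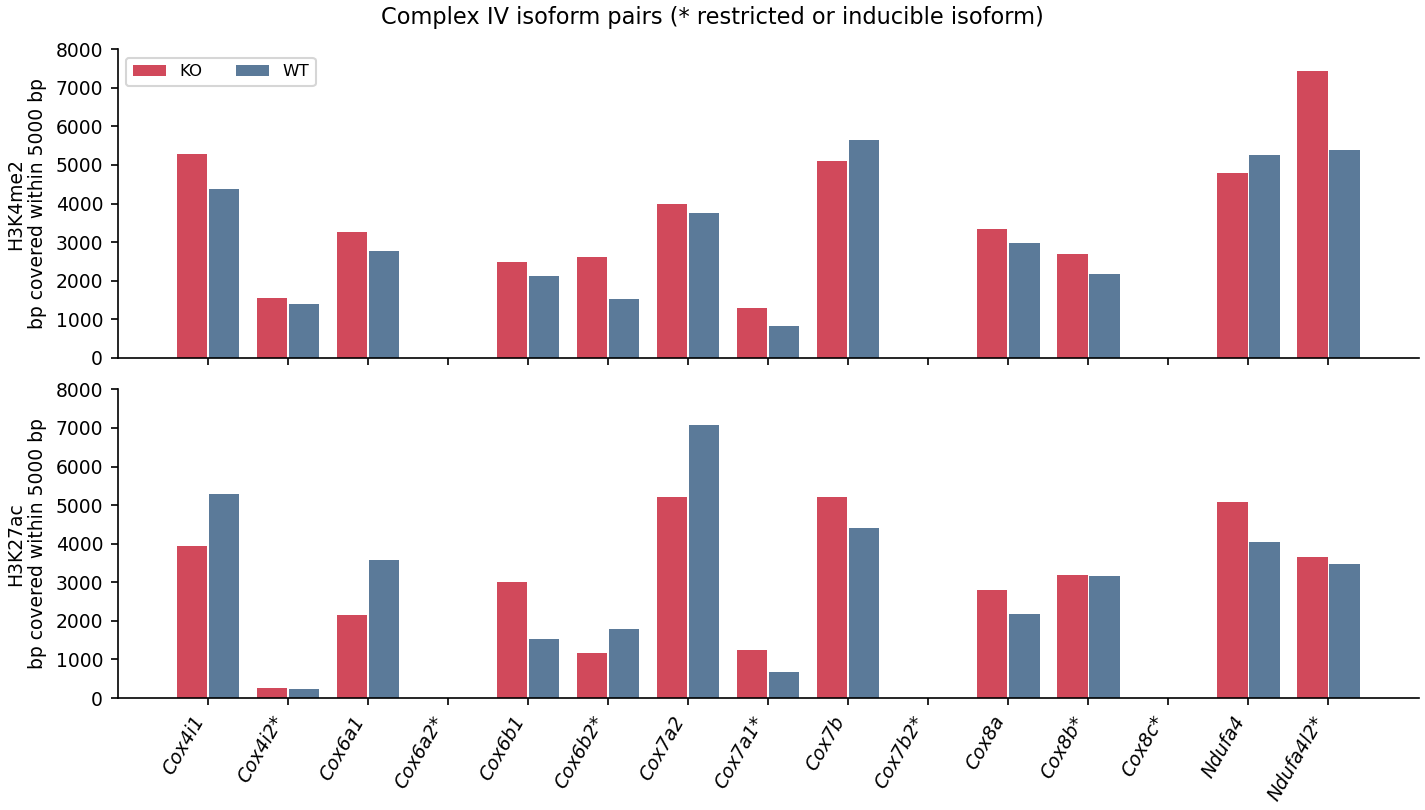
Length covered by H3K4me2 (top) and H3K27ac (bottom) within 5000 bp of the marked end, in bp, at complex IV isoform genes, with 1 KO and 1 WT library per mark as bars and asterisks on restricted or inducible forms. Cox6a2, Cox7b2 and Cox8c are at 0 in all 4 libraries, and Cox4i2 has 259 bp of H3K27ac in KO and 234 bp in WT.

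Most of the 98 marked genes had a strong region. By −log10 q-value, the strongest H3K27ac region within 1000 bp of the marked end was in the top 10% of its list at 65 genes in KO (66.3%) and 72 in WT (73.5%), beside 40.8% in KO and 42.2% in WT of all genes with H3K27ac there. For H3K4me2 it was in the top 10% at 69 genes in KO (70.4%) and 54 in WT (55.1%), beside 46.8% in KO and 43.0% in WT of all genes with the mark there. Cox5a, a subunit of cytochrome c oxidase, was the weakest for H3K4me2, at 94.8% of the way down the list in KO and 88.4% in WT. The marked end of Cox5a is not its annotated start, so these ranked regions lie away from its promoter window. At the start of the Cox5a gene record, H3K4me2 covered 1873 bp in KO and 1862 bp in WT within 5000 bp. Atp5b, the catalytic beta subunit of ATP synthase, had the best ranked H3K27ac region of the group in KO, at rank 199. In WT the best belonged to Atp5j, a stalk subunit of ATP synthase known as factor F6, at rank 152.

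The covered length within 5000 bp of the marked end, out of 10001 bp, was then compared per gene. H3K4me2 had a median of 3322 bp in KO and 3079 bp in WT over the 105 genes, and 2191 bp in KO and 2038 bp in WT over all genes. H3K27ac had a median of 2455 bp in KO and 2545 bp in WT over the 105 genes, and 1229 bp in KO and 1178 bp in WT over all genes. A difference of at least 1000 bp is called longer or shorter below. With 1 library per genotype there is no replicate check and no test of any single gene.

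By the mean of KO and WT, the longest H3K27ac belonged to Ndufa6, an accessory subunit of complex I, with 8406 bp in KO and 9185 bp in WT. Atp5d, subunit delta of the ATP synthase rotor, and Cox20 followed, with 9266 bp in KO against 7822 bp in WT and 7729 bp in KO against 6915 bp in WT. By the same mean, the shortest besides Cox4i2 were Cox7c, a structural subunit of cytochrome c oxidase, with 690 bp in KO and 994 bp in WT, and Uqcrc1, a core protein of complex III, with 1080 bp in KO and 772 bp in WT. Length and rank are different things, since the short Cox7c region ranked 343 in KO and 481 in WT, within the top 1% of lists of 54652 regions in KO and 63321 in WT.

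H3K4me2 was longer in KO at 12 of the 102 genes that had it (11.8%), beside 11.7% of all genes, and shorter at 3 (2.94%), beside 5.72% of all genes. The largest differences in the longer direction were at Ndufa4l2, with 7448 bp in KO and 5383 bp in WT, and Cox14, an assembly factor that acts on the Cox1 subunit, with 6670 bp in KO and 4632 bp in WT. Ndufv3, a complex I accessory subunit, had 3770 bp in KO and 1867 bp in WT, and Atp5d had 9800 bp in KO and 8002 bp in WT. Uqcrh, the hinge protein of complex III, had 6896 bp in KO and 5266 bp in WT, and Ndufs7, a core subunit with the last iron-sulphur cluster before ubiquinone, had 4896 bp in KO and 3435 bp in WT. The shorter genes were Ndufb3, with 3439 bp in KO and 4972 bp in WT, Ndufa8, with 3227 bp in KO and 4557 bp in WT, and Cox20, with 5820 bp in KO and 6971 bp in WT. Ndufb3 and Ndufa8 encode accessory subunits of complex I.

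Over the 102 genes the KO minus WT difference in H3K4me2 had a median of 150.5 bp, beside 127 bp over all genes with the mark. It was positive at 63 genes and negative at 39, or positive at 61.8%, beside 60.2% of all genes. Oxidative phosphorylation genes thus stood close to all genes, and the KO list as a whole covered more of the genome than the WT list.

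H3K27ac was longer in KO at 8 of 101 genes (7.92%), beside 12.0% of all genes, and shorter at 10 (9.90%), beside 12.2% of all genes. The shorter ones began with Ndufa13, with 3485 bp in KO and 5937 bp in WT, and Atp5c1, the gamma subunit of the ATP synthase rotor, with 2375 bp in KO and 4280 bp in WT. Cox7a2 had 5204 bp in KO and 7082 bp in WT, and Cox11, which delivers copper to the Cox1 subunit, had 1681 bp in KO and 3424 bp in WT. Ndufa8 had 2017 bp in KO and 3518 bp in WT, and Cox15, which makes heme A, had 2076 bp in KO and 3572 bp in WT. Cox15 had less H3K4me2 as well, 2255 bp in KO and 3247 bp in WT, and Ndufa8 was shorter for both marks.

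Of the genes with longer H3K27ac, Cox14 led with 6034 bp in KO and 4181 bp in WT. Atp5pb, stalk subunit b of ATP synthase, had 3938 bp in KO and 2328 bp in WT, and Ndufb10, a complex I accessory subunit, had 7363 bp in KO and 5819 bp in WT. Cox6b1, on the outer face of cytochrome c oxidase, had 3007 bp in KO and 1528 bp in WT, Atp5d had 9266 bp in KO and 7822 bp in WT, and Ndufaf8, a complex I assembly factor, had 3065 bp in KO and 1832 bp in WT. Cox14 and Atp5d were longer for both marks. At Cox14, on chr15:99725618-99728136, the strongest H3K27ac region at the end was 11549 bp wide in KO and stood against one of 4181 bp in WT, and an H3K4me2 region of 12183 bp in KO against one of 4632 bp in WT. The end of Gpd1, the cytosolic glycerol 3-phosphate dehydrogenase, is 604 bp from that of Cox14.

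The marked end was not the annotated start at 7 genes, which were Atp5d, Atp5k, Cox5a, Cox6b2, Cox7a2, Ndufb10 and Ndufb4b. The annotated start here is the 5′ end of the gene record, which can differ from the start of a promoter window. At Cox7a2 it is chr9:79771422, while the promoter window is chr9:79759804-79760103. The windows of Cox5a and Atp5d also lie inside the gene record, and covered length was not measured around the windows of these genes. The short genes Cox6b2 and Ndufb4b had the same covered lengths at either end. At the annotated start of Cox7a2, H3K27ac covered 3045 bp in KO and 1929 bp in WT, the opposite direction to its marked end. At that of Atp5d, H3K27ac covered 4869 bp in KO and 3018 bp in WT, the same direction, while H3K4me2 covered 5834 bp in KO and 6518 bp in WT, the opposite one. At that of Ndufb10, H3K27ac covered 6437 bp in KO and 5577 bp in WT, a difference under 1000 bp.

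Over the 101 genes the KO minus WT difference in H3K27ac had a median of 92 bp, beside 36 bp over all genes with the mark. It was positive at 58 genes and negative at 43, or positive at 57.4%, beside 52.6% of all genes with the mark. Within 1000 bp of the marked end, 0 genes were longer and 0 shorter for H3K27ac, so the differences named above took in length farther from the end. That window holds at most 2001 bp, and a gene covered throughout it in both genotypes cannot differ there. Marker genes of lymphocytes, endothelium and stellate cells differed between the genotypes as given above, and their part in these differences was not tested.

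**Figure D3:**
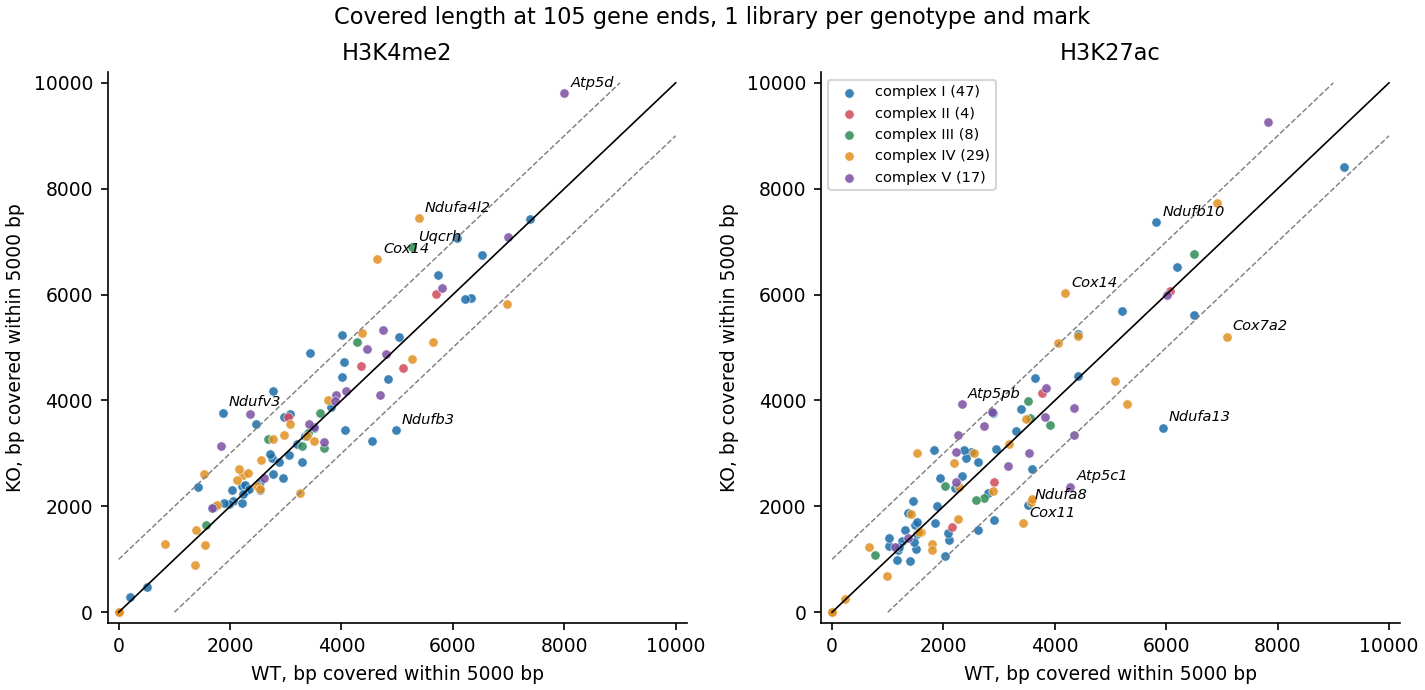
Covered length within 5000 bp of the marked end in bp, KO on the y axis and WT on the x axis, for H3K4me2 (left) and H3K27ac (right), 1 point per gene colored by complex and 1 library per genotype and mark. The solid line is equality and the dashed lines are differences of 1000 bp, with 12 genes above and 3 below for H3K4me2 and 8 above and 10 below for H3K27ac.

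By role, the 7 core subunits of complex I that are encoded in the nucleus all had more H3K27ac in KO within 5000 bp of the marked end. Their median difference was 316 bp, with differences of 118 to 796 bp. Ndufs7 had 4433 bp in KO and 3637 bp in WT, Ndufs1, the largest iron-sulphur subunit, had 3057 bp in KO and 2366 bp in WT, and Ndufs8 had 5686 bp in KO and 5207 bp in WT. Ndufv1, which binds FMN, had 1555 bp in KO and 1307 bp in WT. None of these 7 reached 1000 bp, and 52.6% of all genes with H3K27ac were also positive. The 30 accessory subunits had a median of 1.5 bp, with 15 positive and 15 negative. Within 1000 bp of the marked end, the core subunits did not all go one way. There Ndufs7 had 941 bp in KO and 1286 bp in WT, and Ndufs3 had 1559 bp in KO and 1808 bp in WT. Ndufs8 was covered throughout that window in both genotypes, and the other core subunits had more in KO.

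The 9 complex IV assembly factors had a median H3K27ac difference of -502 bp, with Cox11 and Cox15 at the low end and Cox14 at the high end. Cox17, the copper chaperone that feeds this complex, had 1286 bp in KO and 1797 bp in WT, and Cox10, which makes heme O, had 1859 bp in KO and 1416 bp in WT. The 19 complex IV subunits had a median of 17 bp over the 16 with the mark. Complexes II and III had 0 longer and 0 shorter genes for H3K27ac. The 4 subunits of succinate dehydrogenase, which is both complex II and an enzyme of the citric acid cycle, had a median of -228.5 bp, and the 8 subunits of complex III had a median of 200 bp. Small groups of 1 library per genotype give no error for these medians.

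In ATP synthase, all 5 genes of the F1 head and rotor had more H3K4me2 in KO within 5000 bp of the marked end. The median difference was 290 bp and the range 97 to 1798 bp, while 60.2% of all genes with the mark were also positive. The 1798 bp belonged to Atp5d, whose marked end is not its annotated start. At that start Atp5d had less in KO, 5834 bp against 6518 bp in WT. Within 1000 bp of the marked end, Atp5a1 and Atp5e had less in KO and Atp5d had more. Atp5b and Atp5c1 were covered over all 2001 bp of that window in both genotypes, so no difference could show there. Within 5000 bp, the 12 genes of the membrane part and stalk had a median of 116.5 bp, with 8 positive and 4 negative. For H3K27ac the F1 genes ran from Atp5c1 at the low end to Atp5d at the high end, and Atp5b had 5990 bp in KO and 6007 bp in WT.

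**Figure D4:**
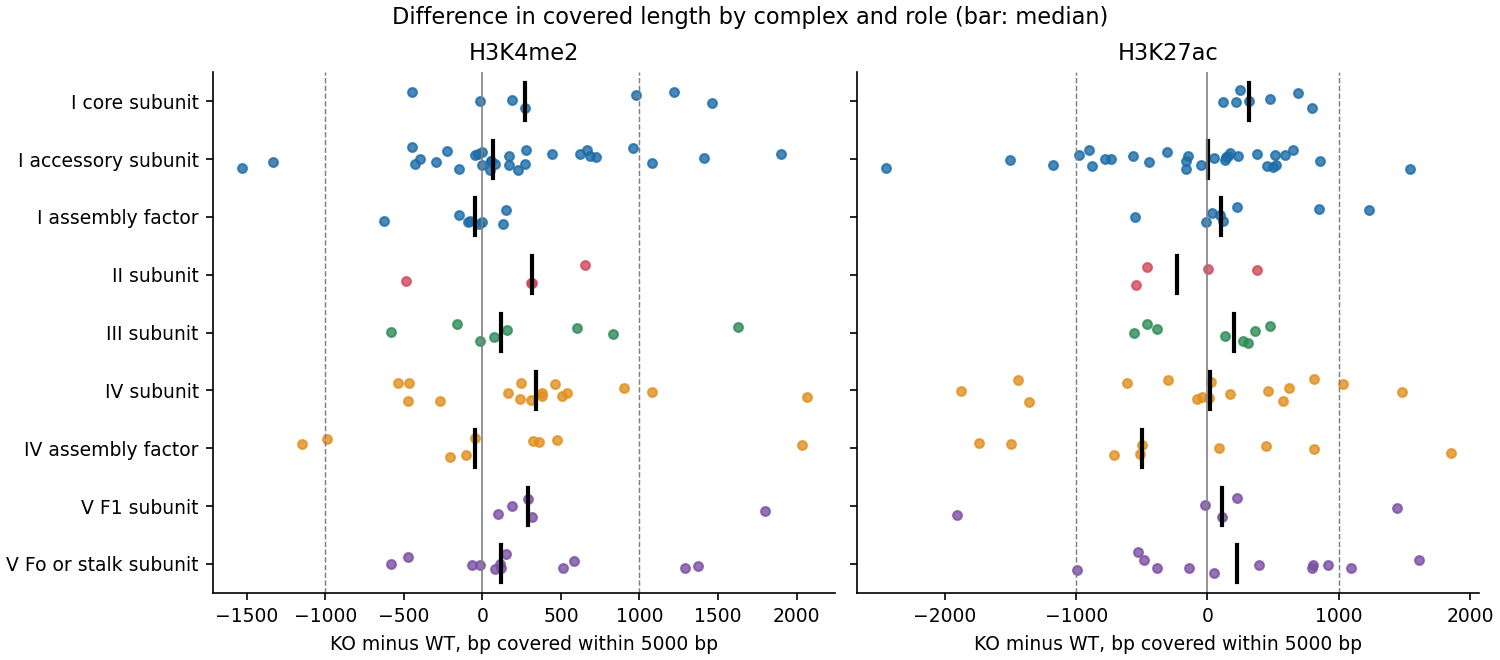
KO minus WT difference in covered length within 5000 bp of the marked end, in bp, for H3K4me2 (left) and H3K27ac (right), 1 point per gene in rows by complex and role, with black bars at the row medians and dashed lines at 1000 bp either way. For H3K27ac the 7 core subunits of complex I lie between 118 and 796 bp, and the complex IV assembly factors have a median of -502 bp.

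The genes sit close to others. Another protein-coding gene had an end within 1000 bp of the marked end at 45 of 105 (42.9%), against 16.1% of all protein-coding genes and 21.3% of those with H3K4me2 at the marked end. Sdhd and Timm8b, which helps import proteins into mitochondria, lie 52 bp apart, and Ndufs1 and Eef1b2 lie 9 bp apart. Atp5j and Gabpa, which encodes the DNA-binding subunit of the ETS factor GABP, lie 966 bp apart. Marks at such ends cannot be assigned to 1 gene of the pair. The genes were also shorter than most, with a median length of 7345 bp against 17169 bp over all protein-coding genes.

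Letters of promoter motifs were counted in the RefSeq windows of 300 bases, which 85 of the 105 genes have. Among those without one are Atp5a1, Atp5mpl, Cox17, Cox18, Cox4i1, Cox4i2, Cox6a2, Cox6c, Cox8c, Ndufa2, Ndufa4l2, Ndufaf6, Ndufb4c, Ndufb9, Ndufs1, Sdhc, Uqcrb, Uqcrc2 and Uqcrq. GABP, NRF1 and YY1 are factors known to act on respiratory chain genes, and their letters are set here against the 17492 protein-coding genes with a window. The ETS letters CCGGAAG, which GABP binds, were in 24 genes (28.2%) against 12.9% of all. The NRF1 letters, GCGC followed after any 2 bases by GCGC, were in 21 (24.7%) against 9.61%, and the YY1 letters AAGATGGCG were in 9 (10.6%) against 2.14%. Both strands were searched, and the ETS and YY1 letters can share bases.

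At least 1 of the 3 kinds was in 46 genes (54.1%) against 22.0% of all, and at least 2 kinds were in 8 (9.41%) against 2.69%. Those 8 were Atp5h, Atp5j, Atp5k, Cox10, Cox6a1, Ndufaf8, Ndufs6 and Sdhd. By complex, ETS letters were in 8 of 21 genes of complex IV and 6 of 15 of complex V, but in 6 of 41 of complex I. NRF1 letters were in 11 of 41 genes of complex I and 6 of 15 of complex V, but in 1 of 21 of complex IV. The 91 windows of these genes had a median GC content of 59.0% against 56.3% over all windows, and a median ratio of observed to expected CpG of 0.828 against 0.567. The part of base composition in the motif counts was not tested.

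To show how these letters lie, the windows of Sdhd, the membrane anchor of succinate dehydrogenase, and Atp5j follow, chosen after the counts were seen. They are chr9:50603800-50604099 and chr16:84834927-84835226 of RefSeq GRCm38.p6, both on the minus strand and written 5′ to 3′, and Atp5j has a second window that is not shown. Capitals mark ETS, NRF1 and YY1 letters.

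Sdhd: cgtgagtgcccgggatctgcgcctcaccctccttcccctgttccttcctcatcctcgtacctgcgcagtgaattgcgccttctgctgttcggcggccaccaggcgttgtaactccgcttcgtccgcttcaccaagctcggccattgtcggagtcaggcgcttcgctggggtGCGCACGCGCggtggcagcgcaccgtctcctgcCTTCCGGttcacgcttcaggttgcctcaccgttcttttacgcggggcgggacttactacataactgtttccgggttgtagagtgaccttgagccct
Atp5j: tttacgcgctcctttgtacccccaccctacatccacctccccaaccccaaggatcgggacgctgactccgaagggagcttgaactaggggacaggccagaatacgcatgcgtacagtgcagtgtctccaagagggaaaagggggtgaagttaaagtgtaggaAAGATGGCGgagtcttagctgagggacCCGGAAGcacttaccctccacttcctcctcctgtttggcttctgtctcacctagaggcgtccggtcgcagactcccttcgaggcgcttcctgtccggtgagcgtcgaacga

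In Sdhd the NRF1 letters start at -79 and the ETS letters, here on the other strand, at -46. In Atp5j the YY1 letters start at -88 and the ETS letters at -61. Neither gene had an E2f4 summit. Sdhd had 4139 bp of H3K27ac in KO and 3763 bp in WT, and Atp5j had 4230 bp in KO and 3838 bp in WT, both under the 1000 bp call.

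For E2F letters the shares lay closer to those of all genes. The 4 spellings of 8 bases were in 2 genes, Cox5a and Cox8a (2.35%), against 3.29% of all genes. The same spellings without the first T, 7-base forms that lie inside them, were in 16 (18.8%) against 13.7%. Of the 11 genes with an E2f4 summit, 5 had a 7-base form in the window, namely Atp5g1, Atp5j2, Cox5b, Cox8a and Ndufs3. The letters TTTGAA, known as CHR in cell cycle promoters, were in 9 genes (10.6%) against 18.5%, and in 0 of the 11. Also searched were the SP letters GGGCGG, in 40 genes (47.1%) against 49.2%, and the NFY letters CCAAT, in 36 (42.4%) against 42.3%. These 2 kinds thus stood at the share of all genes. A match is a description of the letters and not evidence of binding.

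**Figure D5:**
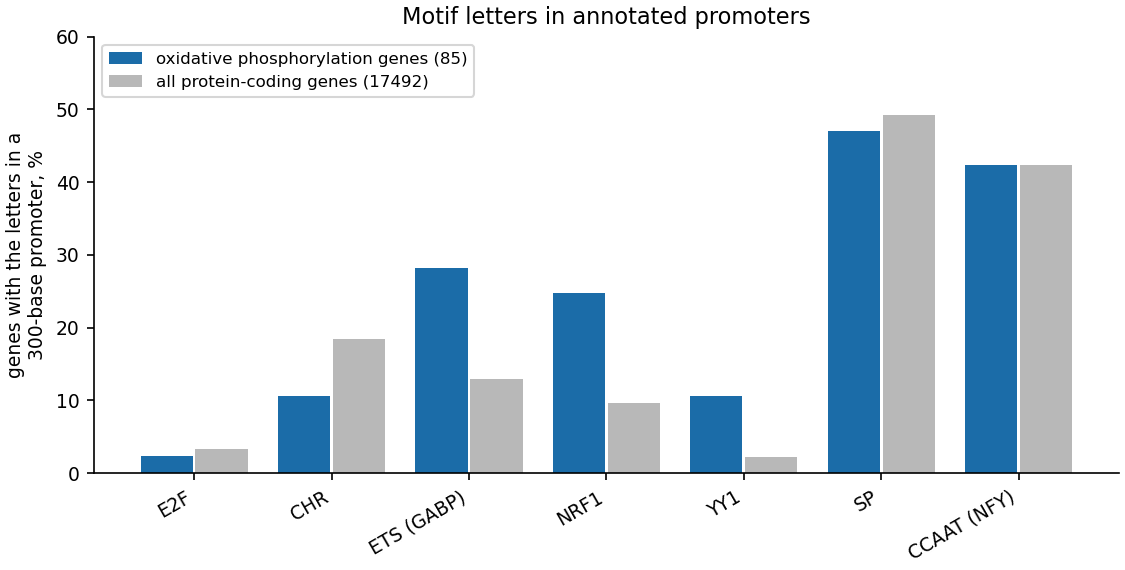
Share of genes, in percent, with the letters of each motif on either strand of a 300-base promoter window, for 85 oxidative phosphorylation genes and all 17492 protein-coding genes with a window. ETS letters are at 28.2% against 12.9%, NRF1 letters at 24.7% against 9.61% and YY1 letters at 10.6% against 2.14%, while E2F letters are at 2.35% against 3.29%.

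Other genes of the pathway showed a like picture. Of 47 electron carrier and assembly genes whose symbols fall outside the rule, 46 had H3K4me2 at the marked end in KO and 46 in WT. That is 97.9% in each, beside 67.4% of all genes in KO and 66.3% in WT. In E2f4, 0 had a summit in a KO library and 3 in a WT library, namely Tmem186 and Hccs, which help build complex I and cytochrome c, and Coq9 of ubiquinone synthesis. Tmem186 had it in both WT libraries and shares its end with Pmm2. For H3K27ac, 5 were longer in KO (10.6%) and 4 shorter (8.51%), beside 12.0% and 12.2% of all genes.

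Among these and 16 nuclear regulators, the largest H3K27ac differences toward KO were at Coa4, with 3787 bp in KO and 1535 bp in WT, and Lyrm7, a complex III assembly factor, with 3122 bp in KO and 1278 bp in WT. Sco2, which carries copper to complex IV, had 8181 bp in KO and 6548 bp in WT. The largest in the other direction were at Surf1, a complex IV assembly factor, with 5384 bp in KO and 7445 bp in WT, and at Higd2a, with 2955 bp in KO and 4499 bp in WT. Cmc2 had 2444 bp in KO and 3696 bp in WT. For H3K4me2, Sco1 had 5474 bp in KO and 3871 bp in WT, Coa5 had 4555 bp in KO and 2983 bp in WT, and Lyrm7 had 3327 bp in KO and 1850 bp in WT. Tefm, which aids transcription of mitochondrial DNA, had 3680 bp in KO and 4834 bp in WT, Pprc1, a coactivator, had 3830 bp in KO and 4871 bp in WT, and Gabpb2 had 4741 bp in KO and 5541 bp in WT.

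The regulators themselves carried the marks. H3K4me2 was at the marked end of 15 of 16 in KO and 15 in WT (93.8% each), beside 67.4% of all genes in KO and 66.3% in WT. H3K27ac was at 14 in KO (87.5%) and 13 in WT (81.2%), beside 56.5% of all genes in KO and 56.6% in WT. Ppargc1a, the coactivator PGC-1 alpha, had 4040 bp of H3K4me2 in KO and 4149 bp in WT, with 0 bp of H3K27ac in both. It is named after its values were seen. Of 17 citric acid cycle genes, H3K27ac was longer in KO at 1 (5.88%) and shorter at 4 (23.5%), beside 12.0% and 12.2% of all genes, and Ogdh had an E2f4 summit in WT replicate 1.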

How the data were processed

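E2f4, H3K4me2 and H3K27ac ChIP-seq lists of 8 libraries were used, and 8 inputs were not used here. Per the submitters' processing notes, which give no roles, the tools were HOMER, MACS2 2.0.10.20131216, Picard and Bowtie2 2.2.3, and the build was mm10. The lists are in narrowPeak form for E2f4 and broadPeak form for the marks, 1 per library, so peaks were called per library. Each deposited list gives a fold enrichment per peak, which is the authors' ratio. The deposited −log10 p-values and −log10 q-values came with it, and q-values ranked and filtered peaks within a list. E2f4 summits were placed with the deposited summit offset, and the deposited score was left aside. Read counts were not used here, so no interval from depth is given.

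Genes and promoters came from RefSeq tables of GRCm38.p6, with the coordinates of mm10, and exons were not analysed here. The marked end was the one where the KO and WT H3K4me2 lists together covered more of the 2000 bp on either side. H3K27ac decided ties, and 6018 undecided genes took the annotated start, or the lower coordinate where no strand was given. Of the 105 genes, 20 had no strand in the tables. Samples were grouped by title. Comparisons are counts and medians beside those of all genes, and an exact permutation test over E2f4 libraries. Covered length moves with how much was called in a list. Sharing a replicate number was not taken as pairing, since no label ties the libraries.

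Named genes were those with an E2f4 summit, the 6 largest differences of at least 1000 bp each way per mark, unmarked genes, isoform pairs, the 3 longest and 3 shortest for H3K27ac, and the 3 largest differences each way in the lists outside the rule. The genes, lists, tests and alternatives were chosen with earlier results of these data known. Other genes named are there for a complex, a shared end or a motif. Alternatives were windows, thresholds, gene ends, list lengths, left-out libraries and the replicate block. Scripts used Python 3.11.15, numpy 2.4.6, pandas 2.3.3, scipy 1.17.1 and matplotlib 3.10.9, and were tested on simulated data.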

Additional observations from a re-analysis of the deposited data

Results flagged for a closer look

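E2f4 peaks on the mitochondrial chromosome lie outside the comparisons of nuclear genes. KO replicate 1 had 1 among its 287 peaks and KO replicate 2 had 1 among 683. WT replicate 1 had 16 among 1791 and WT replicate 2 had 6 among 1058, and the 4 histone lists had 0. The part of list length in these counts was not tested. The authors' fold of these peaks ran from 1.30 to 1.57, well under that of the Cox8a, Ndufb8 and Ndufs8 peaks, and the mitochondrial genome encodes the remaining subunits of complexes I, III, IV and V.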

How the results depend on the processing

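Of 88 alternative values for 13 results, 71 were counted as kept, while 16 moved and 1 reversed. The KO minus WT mean was counted as kept on its direction alone. Its exact permutation p in the main setting, 0.333, was already the smallest that 4 libraries allow, so no usual p-value threshold could be crossed. Counts and medians were counted as kept near their size, which took in small counts going from 3 to 2 or from 3 to 4. The 71 therefore includes values that differ in size from the main one, such as -1.5 beside -4.5. The count of genes with an E2f4 summit in a KO library was 4, and 2 with each E2f4 list held to its 287 strongest peaks. Without KO replicate 2 it was 0, so the range over left-out KO libraries is 0 to 4. The count with a summit in both WT libraries was 3, and in the one WT library left it was 5 without replicate 1 and 8 without replicate 2. The KO minus WT mean of -4.5 genes ranged from -6.5 to -2.5 with a library left out, and was -1.5 with peaks of −log10 q-value 10 or more (exact permutation p = 1.0) and -1.5 in lists of equal length (exact permutation p = 0.667). With the replicate block it was -4.5 (exact permutation p = 0.5), and 2 pairs are too few to check whether the numbers pair the libraries. Within 1000 bp of the end, H3K4me2 was longer in KO at 1 gene and shorter at 0, with a median difference of 0 bp. H3K27ac was longer there at 0 and shorter at 0, with a median of 0 bp. That window holds at most 2001 bp and many genes fill it in both genotypes, which limits the differences it can show. Within 10000 bp, H3K27ac was longer at 15 and shorter at 20, and its median difference turned to -15 bp, where the cause was not tested. With a call of 1.5-fold, H3K4me2 was longer at 7 and shorter at 1, and H3K27ac was longer at 4 and shorter at 11. With regions limited to −log10 q-values of 5 or more, H3K27ac was longer at 9 and shorter at 5, so the balance of 8 longer and 10 shorter turned round. Depth is unknown and each mark has 1 library per genotype, which limits every comparison of covered length.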
